A study of Canis lupus familiaris with 4 samples.

Results

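The canine miRNAs with numbers of 8000 and above were examined in extracellular vesicles (EVs) of a pair of canine mammary carcinoma cell lines. They were chosen by name, as every row of the deposited miRNA table whose name carries the prefix cfa-mir- and a number of 4 digits starting with 8. The rule found 157 of the 673 rows, with 120 distinct numbers from 8789 to 8908. The other rows are 351 known miRNAs with lower numbers, let-7 included, and 165 miRNAs predicted from these reads. Small RNA was sequenced from EVs of CHMp, a line from a primary tumor (pTDEs), and of CHMm, a line from a metastasis of the same dog (mTDEs), with 2 libraries per line. Both lines were grown with fetal bovine serum and then kept without it while EVs were released, the labels name no other treatment, and 1 cell line stands for each tumor stage. The study calls the libraries of a line biological replicates, but neither it nor the labels say whether they came from separate cultures. The p-values measure the spread between these libraries, which may be technical. The study names 2 sequencing platforms (HiSeq and NovaSeq) and 2 read lengths without saying which library had which. Whether these differ between the lines or the replicates is unknown, and their part in the levels was not tested.

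miRNAs are short RNAs cut from hairpin precursors, first in the nucleus by DROSHA and then in the cytoplasm by DICER1, and either arm of the hairpin (5p or 3p) can be kept. They bind target mRNAs mainly through the seed, a short stretch near their 5′ end, and lower their translation and stability. miRNA numbers are given in the order of registration, so that conserved families such as let-7, miR-21 and miR-200 have low numbers and late entries have high ones. Whether the miRNAs with high numbers occur only in dog was not tested.

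Levels are CPM, the share of a library's reads, summed over all rows, scaled to a total of 1000000. They were recovered from the deposited whole numbers. About 6296517 and 5053535 reads were recovered for the pTDE libraries (replicates 1 and 2) and 3457166 and 2330380 for the mTDE libraries. These are sums over all rows, in which a miRNA with several identical rows counts once per row, and forward and reverse reads were merged. For rows listed at 0 a limit of 3 reads was used, equal to 0.476 and 0.594 CPM in the pTDE libraries and 0.868 and 1.29 CPM in the mTDE libraries. The limit reflects counting error alone, because reads copied by PCR do not count molecules. Of 7 epithelial marker miRNAs, 3 were above 0 in both pTDE libraries and all 7 in both mTDE libraries. Their summed level was 73.9 and 104 CPM in the pTDE libraries and 23718 and 26413 CPM in the mTDE libraries.

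Few of the miRNAs with high numbers were found in the EV libraries. Of the 157 rows, 136 (86.6%) were listed at 0 in all libraries, and 108 of the 120 numbers had no row above 0. A row counted as identified in a cell line when each of that line's libraries had it above 0. By that rule 10 rows (6.37%) were identified in pTDEs and 5 (3.18%) in mTDEs. Among the other known miRNAs the share was 67.5% in pTDEs (237 of 351) and 57.8% in mTDEs (203 of 351). Among the predicted miRNAs it was 36.4% and 25.5%, but these were predicted from the same reads, and each of the 165 was above 0 in at least 1 library. Of the 31 other known rows numbered 1000 and above, 58.1% were identified in pTDEs and the same share in mTDEs. Rows and miRNAs are not independent replicates, and these shares are given as a description. The study kept only reads within a set range of lengths, so mature forms outside it could not be counted. Mature lengths were not analysed here, and the part of this selection in the shares was not tested.

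**Figure D1:**
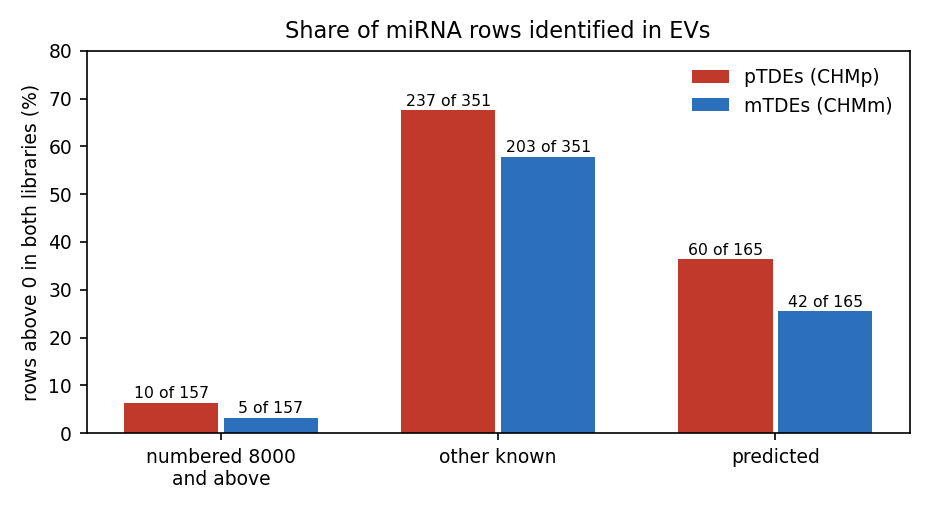
Share of rows identified in a cell line, in percent, for the miRNAs numbered 8000 and above, the other known miRNAs and the predicted miRNAs, with pTDEs in red and mTDEs in blue. The numbers above the bars are rows identified and rows in all, and the 10 and 5 rows of the high numbers stand far under the 237 and 203 of the other known miRNAs.

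Many rows above 0 were seen in a single replicate. In pTDEs 20 of these rows were above 0 in at least 1 library and 50.0% of them in both, against 88.8% of 267 other known rows. In mTDEs 11 rows were above 0 in at least 1 library and 45.5% in both, against 84.6% of 240. Among predicted rows these shares were 63.2% of 95 in pTDEs and 30.7% of 137 in mTDEs. Single libraries had 15 of the rows above 0 in each pTDE replicate and 9 and 7 in mTDE replicates 1 and 2. A further 10 rows were above 0 in some library without being identified in either line. For 6 of the 21 rows above 0 the highest level was under the limit of 3 reads in mTDE replicate 2, so that such levels could be missed at that depth. Counting identical rows of 1 number once leaves 14 of the 21 rows. The shares seen in both libraries count such rows separately and were not matched for level.

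The 11 rows identified in at least 1 cell line stand for 8 miRNAs of 7 numbers. miR-8859a and miR-8859b, miR-8884 and miR-8903 were identified in both lines. miR-8865, miR-8890 and miR-8908a-3p were identified in pTDEs only and miR-8803 in mTDEs only. miR-8908a-3p has 4 rows, cfa-mir-8908a-1-3p to cfa-mir-8908a-4-3p, with the same values in every library, and is described as 1 miRNA. In the RefSeq annotation of the dog assembly UU_Cfam_GSD_1.0, 6 of the 8 lie within the bounds of a protein-coding gene. The table gives no strand, and as the study used another assembly no positions are given.

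The level of the whole set was carried by 1 miRNA, miR-8859a. Its level was 6588 CPM in pTDE replicate 1, 8804 CPM in pTDE replicate 2, 6943 CPM in mTDE replicate 1 and 21709 CPM in mTDE replicate 2. mTDE replicate 2 stood above the other libraries, which lay close together, and the cell lines overlapped. In pTDEs its mean of 7696 ± 1567 CPM (SD, n = 2) took rank 22 of the 247 known rows identified. In mTDEs its mean of 14326 ± 10441 CPM (SD, n = 2) took rank 20 of 208 rows. A miRNA with several genes has a row for each, so these ranks count some miRNAs more than once. miR-8859a made up 97.0% and 95.7% of the summed CPM of all 157 rows in the pTDE replicates and 92.7% and 94.8% in the mTDE replicates. The summed CPM was 6793 and 9198 in pTDEs and 7493 and 22901 in mTDEs, between 0.679% and 2.29% of a library. The sums overlapped (exact permutation test, two-sided, p = 0.667), and with 2 libraries against 2 the smallest p the test can give is 0.333.

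**Figure D2:**
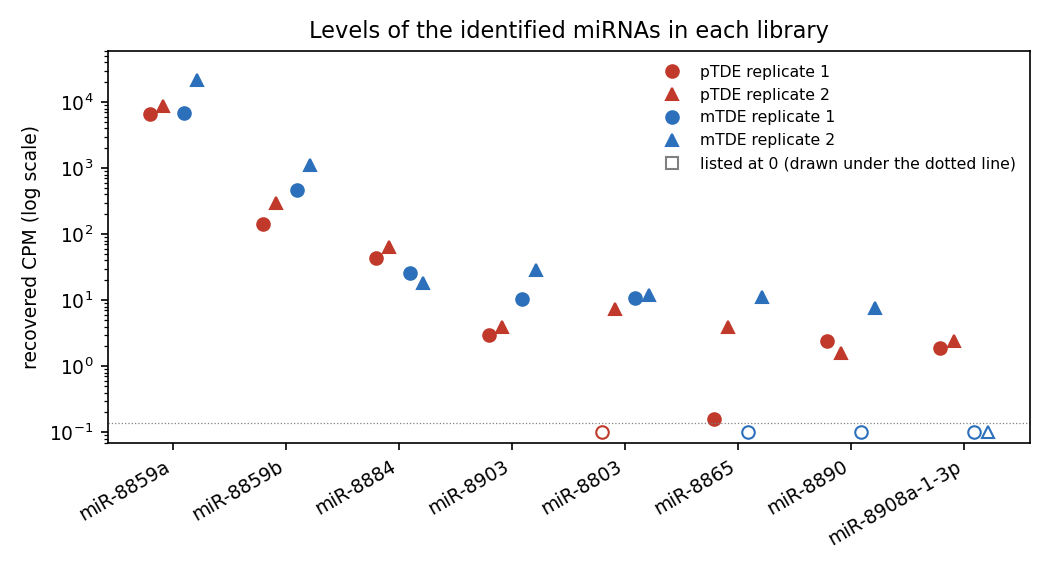
Recovered CPM on a log axis of the 8 miRNAs identified in at least 1 cell line, with 1 point per library, pTDEs in red and mTDEs in blue, circles for replicate 1 and triangles for replicate 2. Open symbols under the dotted line are libraries listed at 0, and miR-8859a lies far above the other miRNAs in all libraries.

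miR-8859b, the second member by level, had 143 and 301 CPM in pTDEs (replicates 1 and 2, as in the values that follow) and 462 and 1114 CPM in mTDEs. Both mTDE libraries lay above both pTDE libraries, the pTDE mean being 222 ± 111 CPM and the mTDE mean 788 ± 462 CPM (SD, n = 2). Both genes lie within KCNQ1, which encodes a voltage-gated potassium channel, and within the long noncoding RNA gene LOC119864243. They are next to each other in the annotation, MIR8859A on the side of TRPM5 and MIR8859B on the side of CDKN1C, an inhibitor of cyclin-dependent kinases. The reads of miR-8859a exceeded those of miR-8859b by 46.1 and 29.3 times in the pTDE replicates and by 15.0 and 19.5 times in the mTDE replicates. The ratio was thus higher in both pTDE libraries, a comparison chosen after the values were seen.

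Markers of blood, like miR-8859a and miR-8859b, were highest in mTDE replicate 2. Rows in general lay high in that library. Its median-ratio size factor, which compares levels of rows above 0 in all libraries, was 1.36. The factors were 0.899 and 0.941 in the pTDE replicates and 0.869 in mTDE replicate 1. How many of all rows were highest in mTDE replicate 2 was not counted. The red blood cell markers miR-451, miR-144 and miR-486 summed to 233 and 814 CPM in pTDEs and 624 and 2820 CPM in mTDEs, with miR-144 at 0 in all libraries. Of the 3 white blood cell markers, miR-150, miR-223 and miR-142, all were above 0 in both libraries of each line, with sums of 28.1 and 79.3 CPM in pTDEs and 82.2 and 198 CPM in mTDEs. The liver marker miR-122 was at 158 and 98.5 CPM in pTDEs and at 364 and 570 CPM in mTDEs. The part of such RNA in the levels of miR-8859a and miR-8859b was not tested.

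miR-8884 was ordered the other way. Its 273 and 319 reads in pTDEs gave 43.4 and 63.1 CPM, and its 90 and 42 reads in mTDEs gave 26.0 and 18.0 CPM. Both pTDE libraries lay above both mTDE libraries, with means of 53.2 ± 14.0 CPM and 22.03 ± 5.67 CPM (SD, n = 2). Its gene lies within SEL1L, whose protein acts in the degradation of misfolded proteins of the endoplasmic reticulum. Of the summed CPM of the set without miR-8859a and miR-8859b, miR-8884 made up 70.3% and 67.3% in the pTDE replicates and 29.4% and 23.3% in the mTDE replicates. That sum overlapped between the lines, at 61.7 and 93.8 CPM in pTDEs and 88.5 and 77.2 CPM in mTDEs.

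miR-8903 lies within DROSHA, the gene of the nuclear enzyme that cuts miRNA precursors. In pTDEs 19 and 20 reads made 3.02 and 3.96 CPM, and in mTDEs 36 and 66 reads made 10.4 and 28.3 CPM. The mTDE libraries lay above the pTDE libraries without overlap. miR-8803, within CRTC1, which encodes a coactivator of CREB, was listed at 0 in pTDE replicate 1 and was at 7.32 CPM (37 reads) in pTDE replicate 2. In mTDEs it had 10.99 and 12.002 CPM (38 and 28 reads). Both mTDE libraries lay above both pTDE libraries, and miR-8803 was identified in mTDEs only, although pTDE replicate 2 held 37 reads of it.

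miR-8865 and miR-8890 rested on few reads. miR-8865, whose gene is not placed on a chromosome in the assembly, was at 0.160 CPM (1 read) and 3.96 CPM (20 reads) in the pTDE replicates. In mTDEs it was listed at 0 in replicate 1 and was at 11.2 CPM (26 reads) in replicate 2. miR-8890, within the gene of the transcription factor TEAD2, was at 2.38 and 1.58 CPM (15 and 8 reads) in the pTDE replicates. It was listed at 0 in mTDE replicate 1 and was at 7.73 CPM (18 reads) in mTDE replicate 2. For both miRNAs the highest library was mTDE replicate 2, yet they counted as identified in pTDEs only, as mTDE replicate 1 had no read.

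miR-8908 has the most rows, 14, and 11 genes in the annotation, which lie in a row on 1 chromosome with 1 gene of another kind, a long noncoding RNA gene, among them. Of the 14 rows, 7 were above 0 in some library. miR-8908a-3p had 12 reads in each pTDE library, or 1.91 and 2.37 CPM, and both mTDE libraries list it at 0. Its mean of 2.14 ± 0.327 CPM (SD, n = 2) was at least 1.99-fold higher than the mean 3-read limit of the mTDE libraries, and 2.20-fold and 1.77-fold without pTDE replicate 1 and 2. The lower of its pTDE levels would correspond to 6.60 reads in mTDE replicate 1 and 4.45 reads in mTDE replicate 2, so that the bound rests on a small difference in reads. With a limit of 6 reads in place of 3, chosen after low read numbers were seen to be mostly even, the bound was 0.993-fold, which does not separate the lines. The 3 rows of its 5p arm were at 0 in all libraries. The 3 miR-8908d rows, also with the same values, were at 1.19 CPM in pTDE replicate 2 (6 reads), at 12.2 CPM in mTDE replicate 1 (42 reads) and at 0 in the other libraries.

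The remaining rows above 0 were each seen in 1 library. miR-8876 was at 4.63 CPM (16 reads) in mTDE replicate 1. miR-8799a, miR-8799c and miR-8799d, which had the same values, were at 1.27 CPM (8 reads) in pTDE replicate 1, and the other rows of the 8 with this number were at 0. miR-8854 (pTDE replicate 2) and miR-8829 and miR-8902 (pTDE replicate 1) had 4 reads each.

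Low read numbers were mostly even, in the set as over all rows. Forward and reverse reads had been merged by the study. Of the 34 values above 0 with at most 50 reads, 30 (88.2%) were even, against 78.0% of 436 values over all rows. With identical rows counted once, 18 of 22 values (81.8%) were even, against 76.8% of 406.

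Apart from miR-8859a and miR-8859b, the identified miRNAs lay under 100 CPM on average. In pTDEs the median over the 10 identified rows was 2.14 CPM, and 7 of them lay under 10 CPM. The copies of miR-8908a-3p are 4 of these 7 and set that median, which was 3.49 CPM with identical rows counted once. The other known miRNAs identified in pTDEs had a median of 126 CPM, and 17.7% lay under 10 CPM. In mTDEs the median was 22.03 CPM over the 5 rows and 277 CPM over the other known ones. The predicted miRNAs were low too, with medians of 5.79 CPM in pTDEs and 28.1 CPM in mTDEs. Among identified known rows, copies included, the ranks were 143 (miR-8884), 219 (miR-8903), 228 (miR-8908a-3p), 232 (miR-8865) and 233 (miR-8890) of 247 in pTDEs. In mTDEs they were 178 (miR-8884), 185 (miR-8903) and 197 (miR-8803) of 208.

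**Figure D3:**
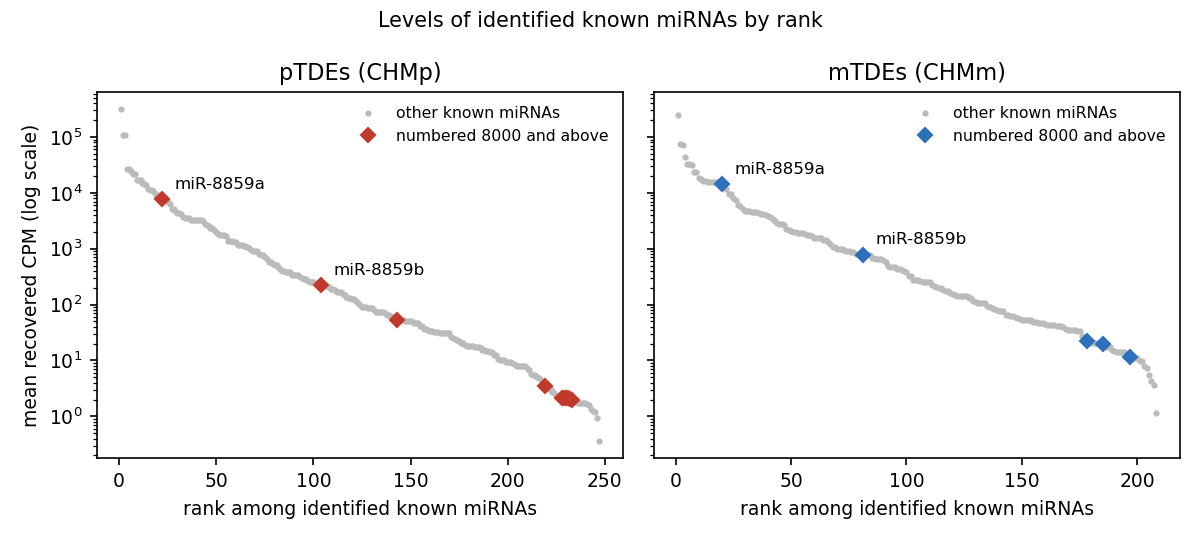
Mean recovered CPM on a log axis against rank for the rows of known miRNAs identified in pTDEs (left) and mTDEs (right). Other known miRNAs are in gray and those numbered 8000 and above are diamonds. miR-8859a is at rank 22 and 20 and miR-8859b at rank 104 and 81, and miR-8884 is at rank 143 in pTDEs, with the remaining diamonds at ranks from 178 to 233.

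Compared with other known miRNAs, replicates of the identified rows had a smaller median difference in pTDEs and a larger one in mTDEs. The absolute difference between replicates on log2(CPM + 1) had a median of 0.35 in pTDEs over 10 rows, from 0.21 for miR-8908a-3p to 2.10 for miR-8865. Over 202 other known rows between the lowest and the highest level of these 10 it was 0.70. That range is wide. Under 10 CPM the median was 0.21 over 7 rows of the set and 0.997 over 42 other known rows. From 10 CPM it was 0.53 over 3 rows and 0.62 over 195. As 4 of the 10 rows are copies of miR-8908a-3p, the medians of 0.35 and 0.21 lean on that miRNA. With identical rows counted once, the median over the set was 0.42. In mTDEs the median was 1.27 over 5 rows, from 0.12 for miR-8803 to 1.64 for miR-8859a, against 0.90 over 173 other known rows in the same range.

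No miRNA of the set passed the test between the cell lines. Differences were tested with limma on log2(CPM + 1), and p-values were adjusted by Benjamini-Hochberg over all 326 rows identified in at least 1 cell line, 11 of them from the set. With adjusted p-values under 0.05, 0 of the 11 were higher and 0 lower in pTDEs, where 0% and 1.84% of all rows were called. At an unadjusted p-value under 0.05, 4 were higher, all of them copies of miR-8908a-3p, and 0 lower, where 10.1% and 9.51% of all rows were called. limma voom on recovered reads called 0 of the 11 as well, but with a pseudocount of 0.1 CPM in place of 1 the 4 copies of miR-8908a-3p were called higher (log2 fold change 4.48, adjusted p = 0.0135). Without either pTDE library, the 4 copies of miR-8908a-3p passed the adjusted test as higher (adjusted p = 0.00054 without replicate 1 and 0.00065 without replicate 2), and without pTDE replicate 2 miR-8803 passed as lower (adjusted p = 0.0356). These fits leave 1 pTDE library, with the spread taken from the mTDE libraries, 2 values at 0 for miR-8908a-3p and 38 and 28 reads for miR-8803. The libraries did not overlap between the lines for 5 of the 11 rows higher in pTDEs (background 26.1%) and 3 lower in pTDEs (background 27.3%). With the 4 copies of miR-8908a-3p counted once, these were 2 (miR-8908a-3p and miR-8884) and 3 (miR-8859b, miR-8903 and miR-8803) of 8 miRNAs. miR-8908a-3p entered the test only through pTDEs and miR-8803 only through mTDEs, the line in which each is high, so these counts are a description and support no difference. With all rows above 0 in any library tested, the adjusted p-value of miR-8908a-3p was 0.545 (limma). The median log2 fold change, pTDEs over mTDEs, was -0.00038 over the 11 rows and -0.03 over all rows tested. Above 0 lay 5 of the 11 rows, 4 of them copies of miR-8908a-3p, and below 0 lay 6. The copies thus raise the median of the 11 rows, which is the value of miR-8890.

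The intervals of the differences were wide. For miR-8908a-3p the log2 fold change was 1.65 with a 95% interval from 0.64 to 2.66 (limma, adjusted p = 0.101). As it entered the test only through pTDEs and has no read in mTDEs, its fold change and interval are set by the pseudocount, with 0.51 at 5 CPM and 4.48 at 0.1 CPM. For miR-8884 it was 1.23 with an interval from -0.97 to 3.44 (limma, adjusted p = 0.430). Lower in pTDEs on this scale were miR-8859b at -1.79 (interval -3.67 to 0.10, limma adjusted p = 0.260), miR-8903 at -2.03 (-4.42 to 0.36, adjusted p = 0.290) and miR-8803 at -2.11 (-5.41 to 1.18, adjusted p = 0.386). miR-8859a was at -0.69 with an interval from -2.42 to 1.04 (limma adjusted p = 0.597), and its direction turned without mTDE replicate 2, to 0.13. miR-8865 was at -0.54 (interval -4.52 to 3.44) and miR-8890 at -0.00038 (interval -3.13 to 3.13). The intervals of 7 of the 8 miRNAs include 0 and differences of more than 2-fold, so that neither a difference nor its absence was shown, and for miR-8908a-3p no difference was shown either. As CPM are shares of a library, fewer EVs with a miRNA and fewer copies per EV cannot be told apart.

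**Figure D4:**
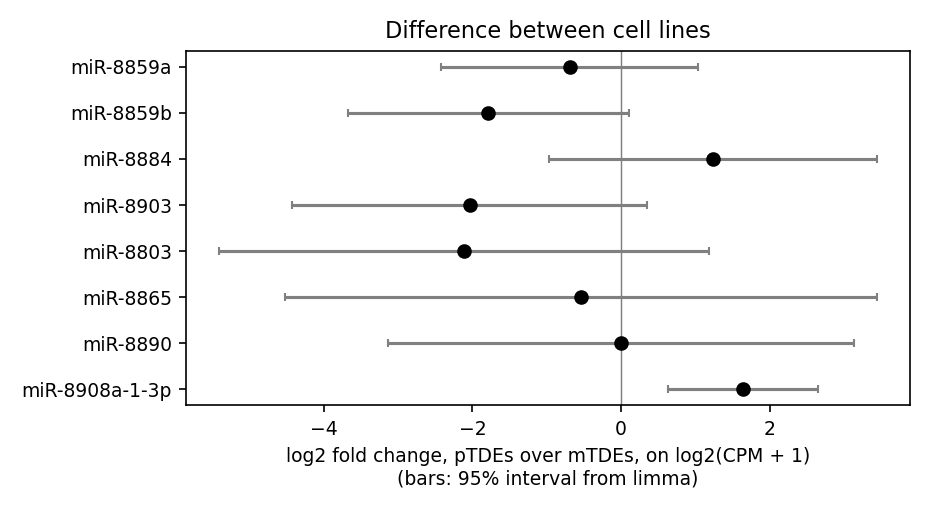
Log2 fold change of the 8 miRNAs, pTDEs over mTDEs, on log2(CPM + 1), with bars for the 95% interval from limma. The bars of 7 miRNAs cross 0, and that of miR-8908a-3p, with both mTDE libraries at 0, moves with the pseudocount, its fold change being 0.51 at 5 CPM and 4.48 at 0.1 CPM.

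The rows whose levels followed those of the leading pair most closely were looked for among 230 other rows above 0 in all libraries, by the root mean square distance of log2(CPM + 1) after centering over the 4 libraries. For miR-8859a these were cfa-mir-339-1 (distance 0.13), cfa_novel_33 (0.19) and cfa-mir-320 (0.22), where the median distance was 0.83. cfa-mir-339-1 was at 1273, 2076, 1557 and 4151 CPM in pTDE replicates 1 and 2 and mTDE replicates 1 and 2. For miR-8859b they were cfa_novel_126 (0.15), cfa-mir-1843 (0.24) and cfa-mir-486-3p (0.27), where the median distance was 1.12. cfa-mir-486-3p, one of the red blood cell markers, was at 110, 349, 485.9 and 1397 CPM in the same order. The neighbors miR-8859a and miR-8859b were at a distance of 0.61 from each other, which put miR-8859b in place 57 in likeness to miR-8859a and miR-8859a in place 27 in likeness to miR-8859b. With 4 libraries, such likeness is only a description.

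The place of the genes was compared with identification as a description. Of the 157 rows, 148 matched a RefSeq gene by name and 137 of these are placed on a chromosome, 36.5% of them within a protein-coding gene. Of 50 rows within a protein-coding gene 6 (12%) were identified in at least 1 cell line, and of the other 87 placed rows 4 (4.60%), all of them miR-8908a-3p. Among the other known miRNAs the shares were 68.8% of 157 rows within and 71.6% of 190 rows outside protein-coding genes. A miRNA gene as the next gene on either side was found for 18.2% of the placed rows of the set and for 48.1% of the other known ones.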

How the data were processed

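Small RNA of EVs from CHMp and CHMm cells was analysed, with 2 libraries each, grouped by their titles. The authors trimmed the reads and selected them by length with cutadapt, checked them with FastQC, merged forward and reverse reads, and ran miRDeep2 on CanFam3.1 for known and predicted miRNAs. Tool versions are not given in the sources used here. The deposited per-library values are a score. The methods name CPM as the values analysed, without giving the unit of these columns, which follow the form of log2(CPM + 1) times a constant of the library. The columns of the authors' own comparison (fold changes, mean levels, test statistics and p-values) were not used.

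CPM were recovered as 2 to the power of value/s, minus 1, with s set per library so that the CPM total 1000000. The worth of 1 read, 0.159 and 0.198 CPM in pTDEs and 0.289 and 0.429 CPM in mTDEs, was the largest step of which the values under 20 CPM were whole multiples within rounding (100% in each library). Single reads can be resolved up to 105 to 257 CPM. Above that, and in the totals, reads are approximate.

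Python 3.11.15, numpy 2.4.6, pandas 2.3.3, scipy 1.17.1, R 4.3.3 and limma 3.58.1 (eBayes with trend, 2.4 prior degrees of freedom) were used. The steps were run on simulated data made with the same form of values, which cannot show that the deposited values have it. The simulation held no merged read pairs. The miRNAs described singly are those identified in a cell line or above 3 reads in any library, with the 3 rows most like each of the leading pair. A rule on shared seeds could not be applied. The set, the lists and the tests were chosen with earlier results of these data known. Mature sequences of these miRNAs were not used here, so lengths and seeds were not analysed. Alternatives were other pseudocounts, filters, scalings and fits, identical rows counted once, a replicate block and each library left out in turn.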

Additional observations from a re-analysis of the deposited data

How the results depend on the processing

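With 1 library enough, 20 rows were identified in pTDEs and 11 in mTDEs, and a mean minimum of 10 CPM left 3 in pTDEs. With 1 library left out, 15 were identified in pTDEs and from 7 to 9 in mTDEs (9 without mTDE replicate 2). The median level in pTDEs was 3.49 CPM with identical rows counted once and 814 with the deposited values taken as CPM, which gave 2065 in mTDEs and a summed level of 21764 (pTDEs). With 1 library left out, the median ranged from 2.14 to 3.17 CPM in pTDEs and from 26.0 to 28.3 CPM in mTDEs, and the summed level from 7493 to 22901 CPM in mTDEs. The median of the other known miRNAs was 170 and 435 CPM with numbers under 1000 and let-7 only. The copies of miR-8908a-3p, 4 rows, were called higher in pTDEs with a pseudocount of 0.1 CPM (log2 fold change 4.48, adjusted p = 0.0135), with the deposited values used as CPM (9.67) and without pTDE replicate 1 or 2 (1.75 and 1.54), where the lone pTDE library is assumed to vary like the mTDE libraries, which are both at 0. Its adjusted p-value was 7.4e-06 to 0.545 over the alternatives with all libraries. The number of rows called was thus from 0 to 4 higher and from 0 to 1 lower with 1 library left out, the 1 being miR-8803 without pTDE replicate 2 (-3.64, adjusted p = 0.0356).

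Directions reversed with the deposited values taken as CPM for miR-8865 (3.16), miR-8859a (0.044) and miR-8890 (4.39). That of miR-8890 also reversed with a pseudocount of 0.1 CPM (1.21), median-ratio size factors (0.27) and voom (0.54), and with 1 library left out it ranged from -1.56 to 1.56. That of miR-8865 ranged from -2.34 to 1.26 and that of miR-8859a from -1.51 to 0.13. Median-ratio scaling moved the median of all rows tested by 0.25. With the replicate number as a block 0 rows were called, and miR-8908a-3p had 1.65 (adjusted p = 0.273). The deviations of same-numbered libraries correlated at 0.15 with only 2 numbers, so that they were not taken to pair the libraries. Apart from filters and copies, the cause was not tested.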
